A study of Mus musculus with 18 samples.

Results

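Undifferentiated mouse embryonic stem (ES) cells that were positive for green fluorescent protein (GFP) were compared between 2 reporter lines. The sample titles set the groups: 2 arrays of Stella-GFP ES cells and 2 arrays of Dazl-GFP ES cells, which are 4 of the 18 arrays of the series. Stella is the protein encoded by Dppa3. Both lines were male, of a mixed C57BL/6 and 129SV background, and both were cultured in medium with leukaemia inhibitory factor (LIF) on feeders, mouse embryonic fibroblasts (MEFs). GFP+ cells were taken by fluorescence-activated cell sorting, and total RNA was extracted with TRIZOL and hybridised in 1 colour to Agilent whole-genome mouse arrays. The labels call the Stella-GFP line a BAC line, which carries the reporter on a bacterial artificial chromosome, and they do not describe the construct of the Dazl-GFP line. Each reporter was present in 1 line only, so the reporter that set the sort and the line itself cannot be told apart in these 4 arrays. GFP-negative ES cells of the same lines, 2 arrays each, are therefore given beside them. The fit that supplied the errors held 14 arrays of cultured cells in 7 groups: these 4 groups, Stella-GFP+ cells after 7 days of differentiation, and Dazl-GFP+ cells after 12 and 16 days. The labels do not state whether replicates were separate cultures, so each p-value speaks for the spread of these samples alone, and that spread may be technical.

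Dppa3 is a maternal factor that protects DNA methylation in the zygote and is an early marker of the germline founders in the embryo, the primordial germ cells (PGCs). In ES cultures it is known to be expressed in a changing subset of cells that resembles the inner cell mass, while cells that lose it resemble the epiblast. Dazl encodes an RNA-binding protein that germ cells use to translate and stabilise their messages, and it is normally low in ES cells. Naive ES cells are held by LIF and by factors such as Klf2, Esrrb and Zfp42, and cells that leave this state activate epiblast genes such as Fgf5 and Pou3f1 before genes of mesoderm and endoderm.

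The germline genes that differed most between the lines were Dazl itself and Nanos3, an RNA-binding repressor needed for PGC survival, and they differed in opposite directions. Their promoter windows, the 250 bases before the gene start in RefSeq (GRCm38.p6), are shown because CpG-rich promoters are a known feature of germline genes silenced by DNA methylation. The Dazl window is chr17:50293621-50293870 and the Nanos3 window is chr8:84176553-84176802, both on the minus strand and written 5′ to 3′, with each CG in capitals.
Dazl: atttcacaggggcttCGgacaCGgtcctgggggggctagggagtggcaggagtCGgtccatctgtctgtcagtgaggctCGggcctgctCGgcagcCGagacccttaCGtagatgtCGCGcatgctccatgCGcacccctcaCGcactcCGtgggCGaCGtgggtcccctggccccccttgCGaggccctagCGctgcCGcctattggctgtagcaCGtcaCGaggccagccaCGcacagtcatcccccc
Nanos3: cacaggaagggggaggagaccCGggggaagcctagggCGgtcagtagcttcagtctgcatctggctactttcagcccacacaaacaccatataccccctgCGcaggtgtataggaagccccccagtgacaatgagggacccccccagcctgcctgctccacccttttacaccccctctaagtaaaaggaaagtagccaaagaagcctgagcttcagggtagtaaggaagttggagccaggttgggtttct
The Dazl window held 20 CG dinucleotides, with a G+C content of 67.2%, and 17.9% of 32851 promoter windows of this length held as many or more. The Nanos3 window held 3, and 71.0% of windows held as many or more. CG is its own complement, so both strands give the same count. Methylation was not measured here.

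Levels are log2 signals relative to the 75th percentile of the array, so a level of 0 is the signal that 75% of spots do not exceed. Differences are Stella minus Dazl in log2 units with the standard error of limma, over 2 arrays a group. Dppa3 was at 5.15 and 5.34 on the Stella-GFP+ arrays and at 4.19 and 4.26 on the Dazl-GFP+ arrays. It was thus abundant in both sorted populations and 2.03-fold higher in the Stella line (1.02 ± 0.10, adjusted p = 0.000335 in limma). Dazl was at -2.75 and -2.71 on the Stella arrays and at 0.79 and 0.73 on the Dazl arrays, where it was 11.3-fold higher (-3.50 ± 0.11, adjusted p = 2.24e-06). A second, dimmer Dazl probe gave a difference of -0.71. Both reporters therefore went with their labels, as the plot of single-gene levels shows. In GFP-negative cells neither gene differed in this direction: Dppa3 was lower in the Stella line by 0.37 and Dazl was higher by 0.41 (adjusted p = 0.0308 and 0.0326). The line difference itself differed between the gates by 1.39 for Dppa3 (adjusted p = 0.00368) and by -3.91 for Dazl (adjusted p = 3.42e-05). The reporters of these 2 genes set the gates, so the sorts favoured both differences. They serve only as a check of the labels. The call of Dppa3 was lost with normexp background correction and in the fits of 4 or of all 18 arrays, while Dazl was called in every alternative run.

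**Figure D1:**
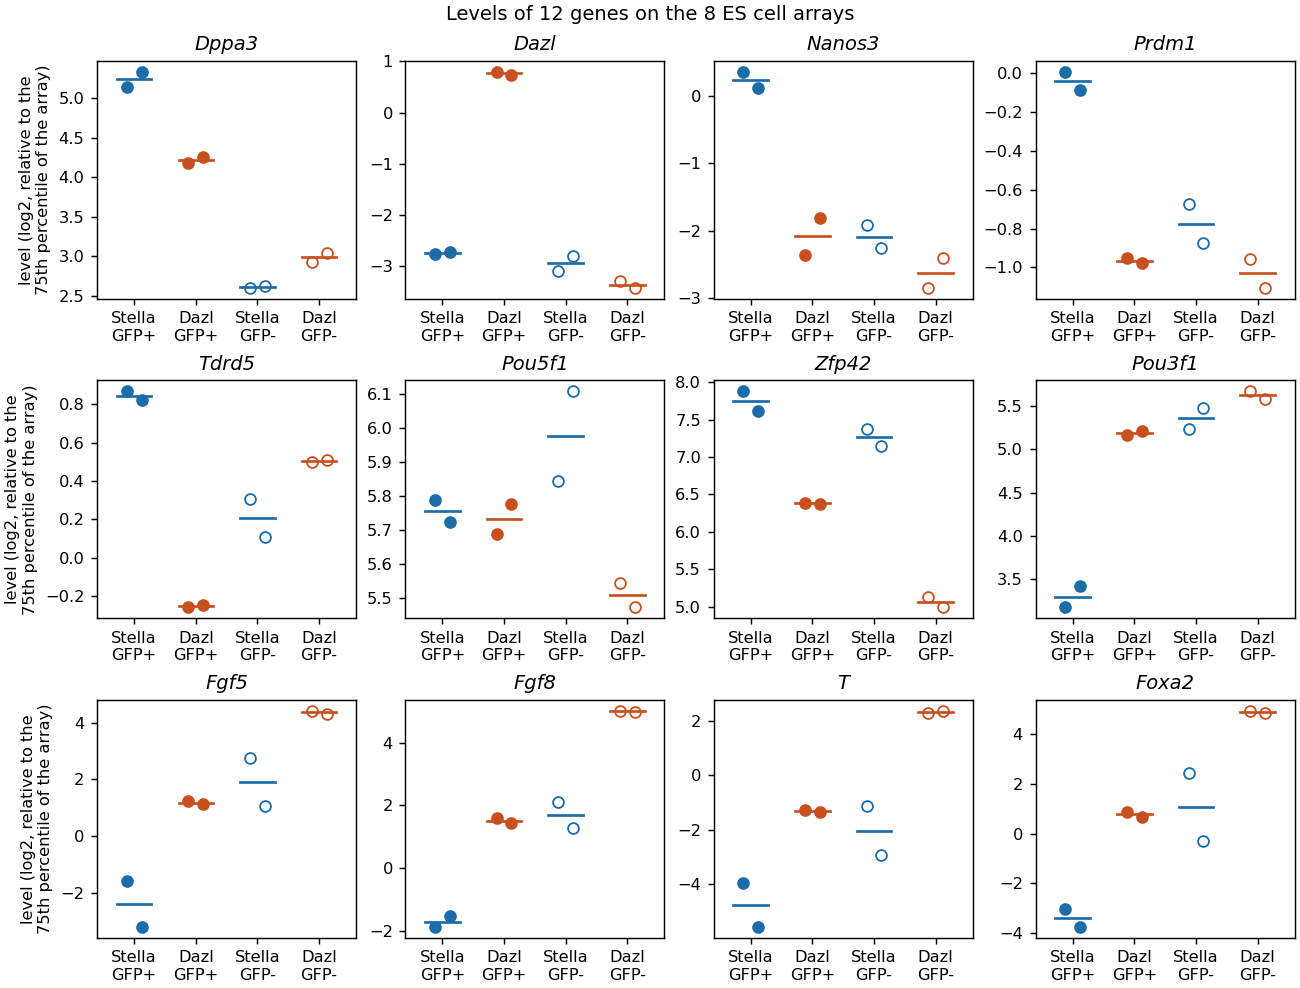
Levels of 12 genes on the 8 ES arrays, in log2 relative to the 75th percentile of each array (vertical axis, own scale per gene); each point is 1 array, each bar the mean of 2, filled points are GFP-positive and open points GFP-negative. Dppa3 and Nanos3 are highest in Stella-GFP+ cells, Dazl in Dazl-GFP+ cells, and the pair of Pou5f1 groups that are GFP-positive overlap.

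Across the other groups of the series, given as a description, mean Dppa3 levels were 2.61 ± 0.02 (SD, n = 2) in Stella-GFP-negative and 2.99 ± 0.08 in Dazl-GFP-negative ES cells, and 5.43 ± 0.11 in Stella-GFP+ cells at day 7. Stella-GFP+ ES cells, at 5.24 ± 0.14, lay next below the day 7 cells and above Dazl-GFP+ ES cells at 4.22 ± 0.05. Dazl was at 0.76 ± 0.04 in Dazl-GFP+ ES cells, below 1.62 ± 0.02 in Stella-GFP+ cells at day 7 and well below 4.87 ± 0.08 and 4.82 ± 0.05 in Dazl-GFP+ cells at days 12 and 16. Dazl-GFP+ ES cells thus held more Dazl RNA than the other ES groups and less than any differentiated group.

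The 75th percentile of the signal was 178 and 122 on the Stella arrays and 112 and 103 on the Dazl arrays, 50.6% to 56.4% of spots were well above background, and no spot was saturated. Of 16981 genes tested, 3058 (18.01%) were called at an adjusted p under 0.05, 1556 (9.16%) higher and 1502 (8.85%) lower in Stella-GFP+ cells, and their 4 arrays did not overlap. The arrays also did not overlap for 50.6% of all genes, and an exact permutation test of 2 against 2 arrays cannot go below p = 0.333. Large differences lay mostly on the Dazl side: 19 called genes were higher in the Stella line by at least 2 in log2 and 333 were lower. The replicates of Stella-GFP+ cells differed by a median of 0.351 per gene and those of Dazl-GFP+ cells by 0.149, against 0.067 to 0.304 in the other groups fitted, so the shared error is small for the Stella arrays. The count fell to 1099 (7.11% of those tested) in a fit of the 8 ES arrays, to 615 (3.26%) in a fit of all 18 arrays, to 243 (1.64%) in a fit of the 4 arrays and to 174 (1.02%) with normexp background correction. It was 1936 without Dazl-GFP+ replicate 1 and 1431 without replicate 2. There were 378 genes, 114 higher and 264 lower, whose calls held in all settings other than normexp, the stricter filter on dim probes and the fit of 4 arrays. They are called the stable calls here.

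Among 16 early PGC genes, 5 (31.2%) were called higher in Stella-GFP+ cells and none lower, beside 9.16% called higher over all genes. The median difference was 0.32 against 0.023 over all genes tested. At an unadjusted p under 0.05 in limma, 9 were higher and 1 lower. Dppa3 is 1 of the 5 and of the 9, and its reporter set the Stella sort, so the sort itself selected for it. Nanos3 was at 0.36 and 0.12 in the Stella line and at -2.35 and -1.81 in the Dazl line, a 5.01-fold difference (2.32 ± 0.26, adjusted p = 0.000608). Prdm1, the repressor that starts the PGC programme and is also called Blimp1, was at 0.01 and -0.09 against -0.95 and -0.98 (0.93 ± 0.10, adjusted p = 0.000599). Both genes separated the lines on all 4 arrays. Dnd1, which protects germline messages and suppresses teratomas, was higher by 0.74 ± 0.20 (adjusted p = 0.0339), and Sox2, a pluripotency factor that PGCs re-express, by 0.46 ± 0.09 (adjusted p = 0.00832). The calls of Dnd1 and Sox2 were lost in the fit of the 8 ES arrays, and none of the 5 was a stable call. In GFP-negative cells 2 of the 16 were called higher and 4 lower, with a median of 0.012. Over all genes in that gate, 11.3% were called higher and 7.41% lower. The difference between the gates passed the test for Nanos3 (1.79, adjusted p = 0.0429) and Dppa3, and for Prdm1 it was 0.67 (adjusted p = 0.0516).

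Later germ cell genes were called in both directions, at 8.33% of the gonadal, 11.1% of the piRNA and 26.9% of the meiosis genes tested, beside 18.01% of all genes. Of 24 gonadal germ cell genes, 1, Zfp42, was called higher and 1, Dazl, lower, and the median was -0.013. Zfp42 is also counted with the naive pluripotency genes below, and the reporter of Dazl set the Dazl sort. Ddx4, the germ cell helicase also called Vasa, was at 1.14 and 0.77 in the Stella line and at 0.72 and 0.89 in the Dazl line, and the arrays overlapped (0.14 ± 0.14, 95% confidence interval -0.17 to 0.46, adjusted p = 0.526). Kit, the receptor of stem cell factor on PGCs, gave -0.17 ± 0.15 (95% confidence interval -0.50 to 0.16, adjusted p = 0.468). In the piRNA pathway, which silences transposons in male germ cells, 1 of 18 genes was higher and 1 lower. Tdrd5, a Tudor protein of the germ granule, was at 0.87 and 0.82 against -0.26 and -0.25, 2.14-fold higher in the Stella line (1.10 ± 0.10, adjusted p = 0.000206), and the gates differed by 1.40 (adjusted p = 0.00341). Tdrd7, another granule Tudor protein, was lower by 0.87 (adjusted p = 0.0381), a call lost in most alternatives. Of 26 meiosis genes, 3 were higher, among them Syce2 and Rec8, and 4 were lower, among them Smc1b and Hormad2. In GFP-negative cells 13 of the 24 gonadal genes were called higher in the Stella line and none lower, with a median of 0.58. The shares of all genes in that gate were 11.3% higher and 7.41% lower. The gates differed for 3 of these 24 genes, beside 2.30% of all genes.

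The general pluripotency factors that were called differed by less than 1 in log2. Pou5f1, which encodes Oct4, was at 5.79 and 5.72 against 5.69 and 5.78, a difference of 0.02 ± 0.13 with a 95% confidence interval of -0.27 to 0.32. Nanog gave 0.32 ± 0.12 (95% confidence interval 0.05 to 0.58, adjusted p = 0.0968). Of 17 general pluripotency genes, 6 were called higher and 1, Dnmt3l, lower (41.2%, beside 18.01% of all genes). Gdf3, a ligand of the Nodal type, rose by 0.93 ± 0.14 and Dppa4, a chromatin protein of pluripotent cells, by 0.55 ± 0.10 (adjusted p = 0.0029 and 0.00775).

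Of 16 naive pluripotency genes, 4 were called higher and 2 lower (37.5%, beside 18.01% of all genes), with a median of 0.203. Zfp42, which encodes Rex1, was at 7.88 and 7.61 in the Stella line and at 6.39 and 6.38 in the Dazl line, 2.57-fold higher (1.36 ± 0.12, adjusted p = 0.000206), and a second probe gave 1.41. Klf2, a Krüppel-like factor of ground-state cells, was higher by 0.83 ± 0.14, Esrrb, an orphan nuclear receptor, by 0.55 ± 0.11, and Nr0b1, which encodes Dax1, by 0.49 ± 0.10. Second probes of Klf2 and Esrrb, also well above background on all 4 arrays, gave smaller differences of 0.25 and 0.28. Against them, Spp1, which encodes osteopontin, was at 6.74 and 6.79 in the Stella line and at 8.26 and 8.18 in the Dazl line (-1.45 ± 0.15, adjusted p = 0.000484). Tbx3, a T-box factor of naive cells, fell by 0.81 ± 0.12 (adjusted p = 0.00282). Spp1 and Tbx3 were stable calls, and the calls of Klf2, Esrrb and Nr0b1 were lost in the fit of the 8 ES arrays. Zfp42 and Klf2 lie on chromosome 8, which is described further on. The naive genes differed more between the GFP-negative populations, where 13 of 16 were called higher in the Stella line with a median of 1.128. Of all genes in that gate, 11.3% were called higher. The gates differed for 7 of the 16, beside 2.30% of all genes.

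Genes of the primed epiblast were lower in Stella-GFP+ cells. Of 18, 7 were called lower and 1 higher (44.4%, beside 18.01% of all genes). Of the lower ones 3 were stable calls, and the median over the list was -1.019. Pou3f1, a POU factor of the epiblast, was at 3.18 and 3.42 in the Stella line and at 5.16 and 5.21 in the Dazl line (-1.89 ± 0.12, adjusted p = 4.68e-05). Pim2, a survival kinase, was at 0.43 and 0.19 against 2.44 and 2.25 (-2.04 ± 0.18, adjusted p = 0.000225). Fgf5, the ligand that marks the epiblast, was at -1.59 and -3.20 against 1.23 and 1.12, an 11.8-fold difference (-3.57 ± 0.57, adjusted p = 0.00354). In each of these the Stella arrays lay below both Dazl arrays by more than the spread within either line. Dnmt3b, the de novo methyltransferase, fell by 1.03 ± 0.12 and its cofactor Dnmt3l by 0.60 ± 0.10 (adjusted p = 0.000764 and 0.00437). The exception was Fgf15, a growth factor that was higher in the Stella line by 0.74 ± 0.12 (adjusted p = 0.00325). Pou3f1 and Dnmt3l differed between the gates, by -1.62 and -1.21 (adjusted p = 0.0042 and 0.00574). For Fgf5 the gates gave -3.57 and -2.46, and their difference did not pass the test (adjusted p = 0.7).

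**Figure D2:**
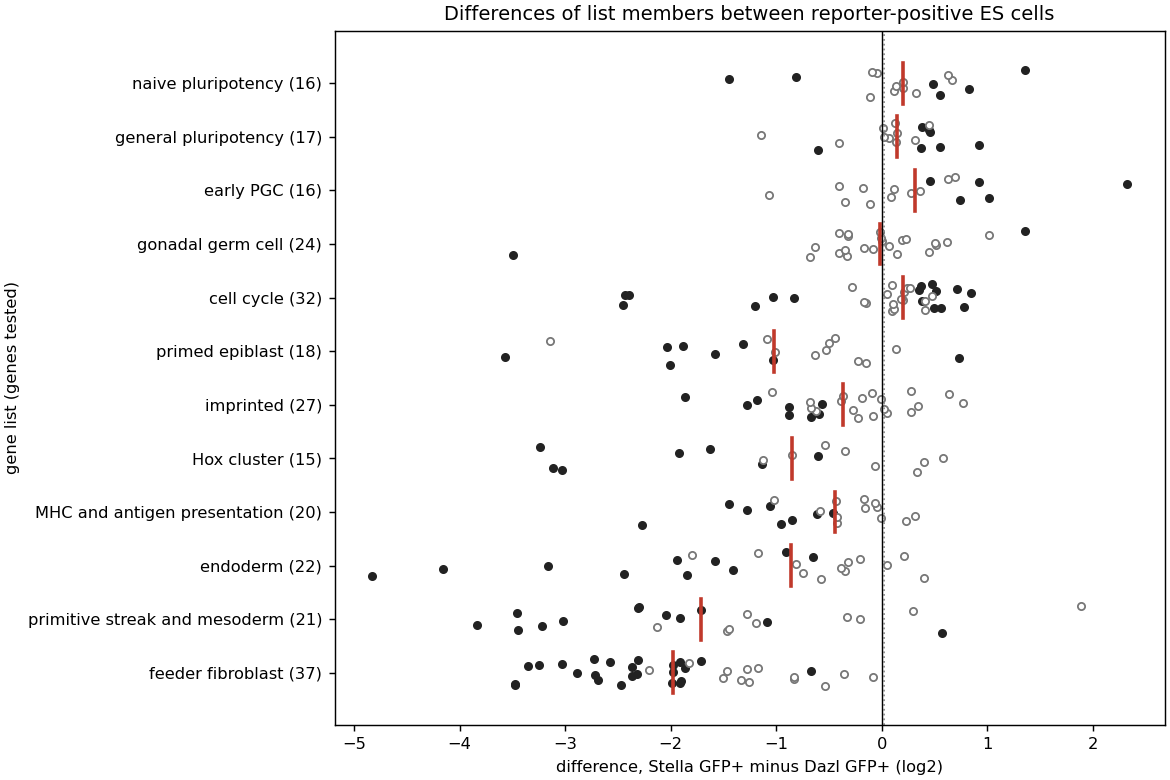
Difference between Stella-GFP+ and Dazl-GFP+ ES cells (log2, horizontal axis) for the tested members of 12 gene lists (vertical axis, number tested in brackets); filled points were called, open points were not, red bars are list medians, the dotted line is the median of all genes. The medians of the feeder fibroblast list (-1.975) and of the primitive streak and mesoderm list (-1.709) lie farthest to the left; values of dim genes are plotted as measured.

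Genes of the primitive streak and mesoderm were also lower, with 11 of 21 called lower, 1 higher and a median of -1.709. The share called was 57.1%, beside 18.01% over all genes. Mixl1, 1 of the 11, was not well above background on any of the 4 arrays. Fgf8, a growth factor of the streak, was at -1.87 and -1.55 in the Stella line and at 1.58 and 1.44 in the Dazl line (-3.22 ± 0.26, adjusted p = 0.000138). Cdx2, a caudal-type homeobox gene of posterior mesoderm and trophoblast, was at -4.22 and -4.38 against -0.88 and -0.83 (-3.44 ± 0.50, adjusted p = 0.00219). T, which encodes Brachyury, was at -3.96 and -5.58 against -1.28 and -1.34 (-3.46 ± 0.61, adjusted p = 0.00554), and it was well above background on 1 of the 2 Stella arrays. Wnt3, the ligand that induces the streak, fell by 2.30 ± 0.38 (adjusted p = 0.00431). Bmp4, a ligand that induces mesoderm and PGCs, was the 1 gene higher, by 0.57. The summed signal of the 21 genes was 6.36 and 7.38 in Stella-GFP+ cells, 10.8 and 10.4 in Dazl-GFP+ cells, and 72.4 and 71.1 in Dazl-GFP-negative cells, where it was highest. Between the GFP-negative populations, 17 of the 21 were called lower in the Stella line, beside 7.41% of all genes, with a list median of -3.07. The fibroblast sums, given further on, were also higher in Dazl-GFP+ than in Stella-GFP+ cells. Their part in the falls of mesoderm and endoderm genes, some of which fibroblasts also express, was not tested.

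Endoderm genes followed the same order, with 10 of 22 called lower (45.5%, beside 8.85% of all genes), none higher and a median of -0.855. Foxa2, a pioneer factor of endoderm, was at -3.03 and -3.73 against 0.87 and 0.68, a 17.8-fold difference (-4.15 ± 0.68, adjusted p = 0.00406). Cer1, a secreted inhibitor of Nodal and BMP made by anterior endoderm, was not well above background on either Stella array and at least 7.89-fold lower there (adjusted p = 0.00613). Gata6, a factor of primitive endoderm, was at least 5.37-fold lower in the Stella line (adjusted p = 0.0134). Col4a2 and Dab2, a basement membrane collagen and an endocytic adaptor of primitive endoderm, fell by 2.44 and 1.41 (adjusted p = 0.00128 and 0.000996). Of the germ layer genes named as lower, Cdx2, Wnt3, Mixl1, Cer1 and Gata6 were not stable calls. In bulk samples, fewer cells of a type and less RNA per cell cannot be told apart.

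Fibroblast genes were lower in Stella-GFP+ cells throughout. The 37 genes of the feeder fibroblast list all had a negative difference, with a median of -1.975. Of the 37, 24 were called lower (64.9%, beside 8.85% of all genes), 5 of them stable calls. The summed signal of all 37, in units of the 75th percentile, was 100.3 and 71.8 on the Stella-GFP+ arrays and 380.2 and 371.5 on the Dazl-GFP+ arrays. In GFP-negative cells it was 60.0 and 102.7 in the Stella line and 163.7 and 159.8 in the Dazl line, so Dazl-GFP+ cells had the highest sums of the 8 arrays. Vim, which encodes vimentin, was at 3.87 and 3.06 against 6.14 and 6.25 (-2.73 ± 0.21, adjusted p = 0.000113). Thy1, a surface antigen of fibroblasts, was at 0.45 and 0.23 against 2.22 and 2.29 (-1.91 ± 0.29, adjusted p = 0.00257). Col1a1, a chain of collagen I, was at 2.12 and 0.65 against 3.38 and 3.20 (-1.91 ± 0.50, adjusted p = 0.0315), a call that was lost in most alternatives. Of the 7 fibroblast markers, Col3a1 and Postn did not pass the test (adjusted p = 0.184 and 0.204), and all 7 were well above background on all 4 arrays. The 2 Stella replicates differed more from each other in these genes than the 2 Dazl replicates did. Tagln and Col5a1, a smooth-muscle actin-binding protein and a fibrillar collagen, fell by 3.24 ± 0.27 and 1.90 ± 0.16 and were called in every alternative. Beside the feeders, of the macrophage markers Csf1r was not well above background on any of the 4 arrays, and neither were the endothelial marker Cdh5 and the endoderm marker Afp. The markers Cd68 of macrophages, Tek of endothelium and Foxa2 of endoderm were well above background on all 4. The summed signal of the 8 macrophage genes was 1.69 and 1.24 in Stella-GFP+ cells and 4.88 and 4.99 in Dazl-GFP+ cells, and 2 of them, Lyz1 and Lyz2, were called lower. The part of such cells in the differences was not tested.

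**Figure D3:**
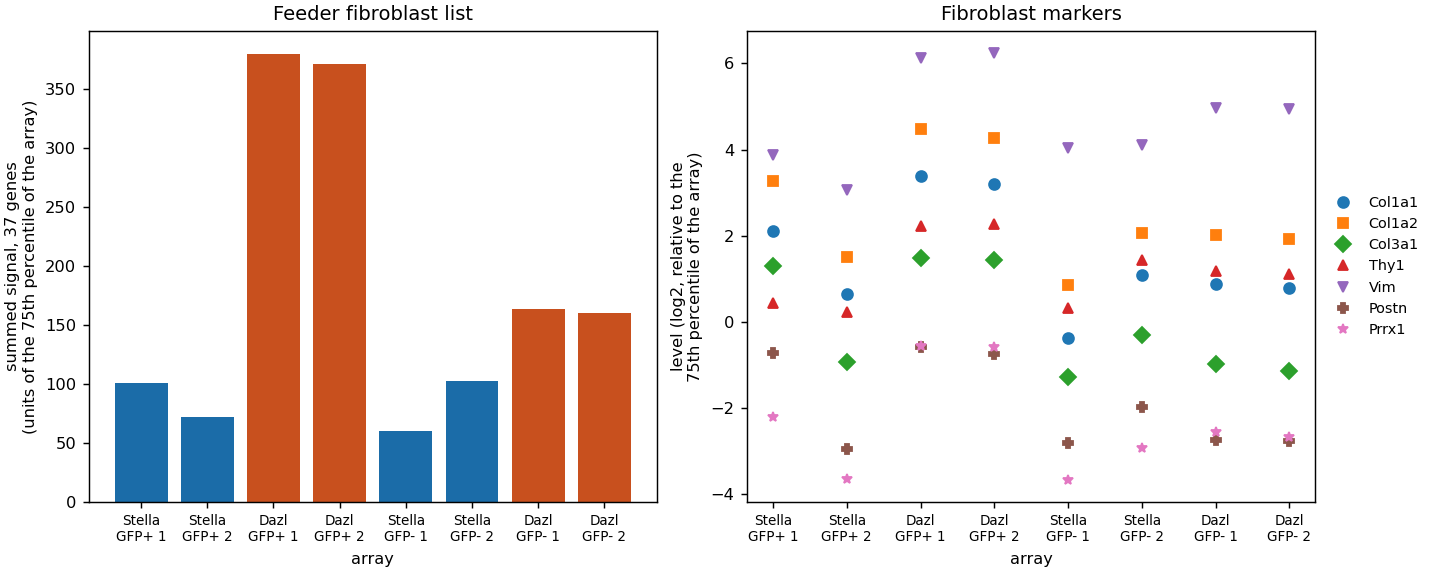
Left, summed signal of the 37 feeder fibroblast genes (linear, in units of each array's 75th percentile) on the 8 ES arrays; right, log2 levels of 7 fibroblast markers on the same arrays. The Dazl-GFP+ arrays have sums of 380.2 and 371.5, and the other 6 arrays lie between 60.0 and 163.7.

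Several other gene groups were lower together with the fibroblast genes, and the part of the fibroblast genes in them was not tested. Of 15 Hox genes, which encode positional factors of the body axis, 7 (46.7%) were called lower and none higher, with a median of -0.847. Their median level was -4.99 and -4.93 on the Stella-GFP+ arrays. The lowest level well above background was -4.77 and -4.49 on those arrays and -4.02 and -3.97 on the Dazl-GFP+ arrays. Without a filter on dim probes, the median difference over all genes was -0.216, against 0.023 with it. Dim genes of any list may thus read as lower in the Stella line. Hoxd13, Hoxa11, Hoxa10 and Hoxb9 were well above background on both Dazl arrays and on neither Stella array, and were at least 6.63-fold, 5.45-fold, 2.78-fold and 2.55-fold lower (adjusted p = 5.33e-05, 0.000106, 0.000318 and 0.000764). Of the 15 genes, 5 were not well above background in either GFP-positive group, the called Hoxc9 among them. The test between the gates passed for 5 of the 15, beside 2.30% of all genes. For Hoxd13, Hoxa11, Hoxa10 and Hoxb9, however, this test rests on Stella-GFP+ signals at the detection level. Of 20 genes of antigen presentation, 8 (40.0%) were called lower and none higher, with a median of -0.444. Over all genes, 8.85% were called lower. B2m, the light chain of class I molecules, was at 0.69 and -0.42 against 2.44 and 2.37 (-2.27 ± 0.31, adjusted p = 0.00177). A second B2m probe gave -2.53, and another, not well above background on any of the 4 arrays, gave 0.80. H2-T23, a non-classical class I gene, fell by 1.06 ± 0.13 (adjusted p = 0.00102), and since class I genes are close in sequence their probes may share signal. Of 27 imprinted genes, 8 (29.6%) were called lower and none higher, with a median of -0.37. Nnat, expressed from the paternal allele, was at -1.81 and -1.66 against -0.49 and -0.63 (-1.18 ± 0.09, adjusted p = 0.000125). In the imprinted Dlk1-Dio3 region, whose silencing is known to limit the developmental potential of reprogrammed cells, the noncoding RNA Meg3 was at 3.70 and 2.77 against 4.56 and 4.46 (-1.27 ± 0.25, adjusted p = 0.00905), a call lost in the fit of the 8 ES arrays.

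Of 32 cell cycle genes, 10 were called higher and 6 lower. The higher ones included the replication helicase subunits Mcm5 (0.71 ± 0.08, adjusted p = 0.000754) and Mcm3 (0.52 ± 0.08, adjusted p = 0.00383) and the mitotic cyclin Ccnb2 (0.79 ± 0.11, adjusted p = 0.0018). A second Mcm3 probe gave 0.19. Among the lower ones, the inhibitor Cdkn2b was at 0.51 and 0.41 in the Stella line and at 2.82 and 2.90 in the Dazl line (-2.40 ± 0.20, adjusted p = 0.000177). Cdkn2a, which encodes p16 and p19Arf, was at -3.29 and -2.85 against -0.51 and -0.77 (-2.43 ± 0.22, adjusted p = 0.000252). The G1 cyclins Ccnd2 and Ccnd1 fell by 2.46 ± 0.31 and 1.20 ± 0.11 (adjusted p = 0.00107 and 0.000301). The fibroblast sums were also higher in Dazl-GFP+ cells, and their part in these falls was not tested. Cdkn2b differed between the gates by -1.77 (adjusted p = 0.0171). Of the death receptor pathway, Fas and Casp8 fell by 2.57 ± 0.29 and 1.80 ± 0.26 (adjusted p = 0.000727 and 0.00221).

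Of 18 genes of Nodal signalling, 3 were called higher and 2 lower (27.8%). Inhba, which encodes a chain of activin, was at 0.70 and -1.10 against 3.15 and 3.19 (-3.37 ± 0.64, adjusted p = 0.00765), a call lost with slide as a block. In the FGF-ERK list, 6 of 18 were lower and 1 higher (38.9%), and in the list of Wnt targets 5 of 16 were lower (31.2%), beside 18.01% called over all genes. Of 19 stress and immediate-early genes, 6 were lower and 2 higher (42.1%). Among the lower ones was Fos, an AP-1 subunit, at -3.00 and -2.72 against -0.87 and -0.64 (-2.10 ± 0.19, adjusted p = 0.000235). Of 14 retinoic acid genes, 3 were lower (21.4%), among them Cyp26a1, the enzyme that degrades retinoic acid, by 3.79 ± 0.80 (adjusted p = 0.0126). That call was lost without Stella-GFP+ replicate 2, without either Dazl-GFP+ replicate and in the fit of the 8 ES arrays. None of 8 erythroid genes, 2 of 22 cholesterol synthesis genes (9.09%) and 5 of 22 interferon response genes (22.7%) were called, beside 18.01% of all genes. At an unadjusted p under 0.05 in limma, 1 of the erythroid genes was higher. By the same measure none of the endoderm, fibroblast, Hox and antigen presentation genes and 1 of the imprinted genes was higher in the Stella line.

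The highest difference over all genes tested was that of a transcript with no gene symbol, which was not well above background in the Dazl line. Among genes with a symbol, the largest rise was that of Mmrn2. This gene, an endothelial matrix protein, was at 2.06 and 2.84 against -0.64 and -0.82, a 9.07-fold difference (3.18 ± 0.22, adjusted p = 6.31e-05). Baiap2l1, an adaptor of membrane and actin, was 8.40-fold higher, Slc4a3, an anion exchanger, 8.12-fold, and Apoc2, the activator of lipoprotein lipase, 7.24-fold. These 4 genes were also higher in GFP-negative cells of the Stella line, by 3.44, 2.01, 2.23 and 4.14. Obsl1 and Ipp, a cytoskeletal adaptor and a kelch protein, rose by 2.38 ± 0.23 and 2.32 ± 0.14, and a second Ipp probe gave 1.09. Trim61, Otoa, Inha, Zfp839 and Hsh2d were not well above background in the Dazl line and were at least 1.74-fold, 2.40-fold, 2.13-fold, 2.10-fold and 3.77-fold higher. The calls of Inha and Hsh2d were lost in the fit of the 8 ES arrays.

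The largest falls among genes with a symbol were larger in size. Trim12a, a TRIM protein with close relatives in its cluster, was at 0.50 on both Dazl arrays, was not well above background on either Stella array, and was at least 35.0-fold lower (adjusted p = 9.32e-06). Prim2, the large subunit of DNA primase, was at -3.21 and -3.92 against 1.64 and 1.61, a 36.6-fold difference (-5.19 ± 0.49, adjusted p = 0.000301). Nod1, an intracellular sensor of bacterial peptides, was at -0.56 and -2.11 against 3.17 and 3.0, a 21.4-fold difference (-4.42 ± 0.43, adjusted p = 0.000329). All 3 were also lower in GFP-negative cells of the Stella line, with differences of -5.91, -4.94 and -3.34, and none differed between the gates at an adjusted p under 0.05. Ppbp, a platelet chemokine, Lce1i, a gene of the skin barrier, Cxcr6, a chemokine receptor, and Ptgs2, the inducible cyclooxygenase, were at least 31.2-fold, 13.6-fold, 10.5-fold and 12.5-fold lower. Angptl7 and Mcpt8, a secreted angiopoietin-like protein and a mast cell protease, were at least 8.12-fold and 9.03-fold lower. For both the test between the gates passed (adjusted p = 0.00319 and 0.01), with Stella-GFP+ signals that were not well above background. Slpi, a secreted protease inhibitor, and the lysozyme gene Lyz1 fell by 4.38 ± 0.89 and 4.29 ± 0.85, each well above background on 1 of the 2 Stella arrays, and Lyz1 shares sequence with Lyz2, which fell by 4.16 ± 0.73.

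Genes called higher were concentrated on chromosome 8, a pattern chosen after the values were seen and given without a test. Among 655 genes of chromosome 8 that were well above background on all 4 arrays, the median difference was 0.527, 82.4% were higher in the Stella line and 331 (50.5%) were called higher, against 27 called lower. Over all 13497 such genes the median was 0.064 and 10.8% were called higher. The log2 of 1.5 is 0.585. The excess ran along the whole chromosome: in 10 equal groups of genes in order of position, medians lay between 0.432 and 0.579. It was present within the slide that held both lines (0.444) and between the second replicates (0.594), and it was 0.534 in GFP-negative cells. Chromosome 14 had a smaller median of 0.254 over 400 genes, with 23.8% called higher, and its groups of genes ranged from 0.025 to 0.347. The other autosomes had medians from -0.001 to 0.096 and the X chromosome 0.035. Over all settings run, the chromosome 8 median ranged from 0.400 to 0.592. Of all 1556 genes called higher, 345 (22.2%) were on chromosome 8. Nanos3, Zfp42, Klf2, Mcm5, Trim61 and Hsh2d are among them, and Col4a2 is among the few that fell. For Nanos3 and Zfp42 the differences of 2.32 and 1.36 exceed the median of their chromosome. Mouse ES lines are known to gain chromosome 8 in culture. DNA copy number was not measured, and its part in these differences was not tested.

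**Figure D4:**
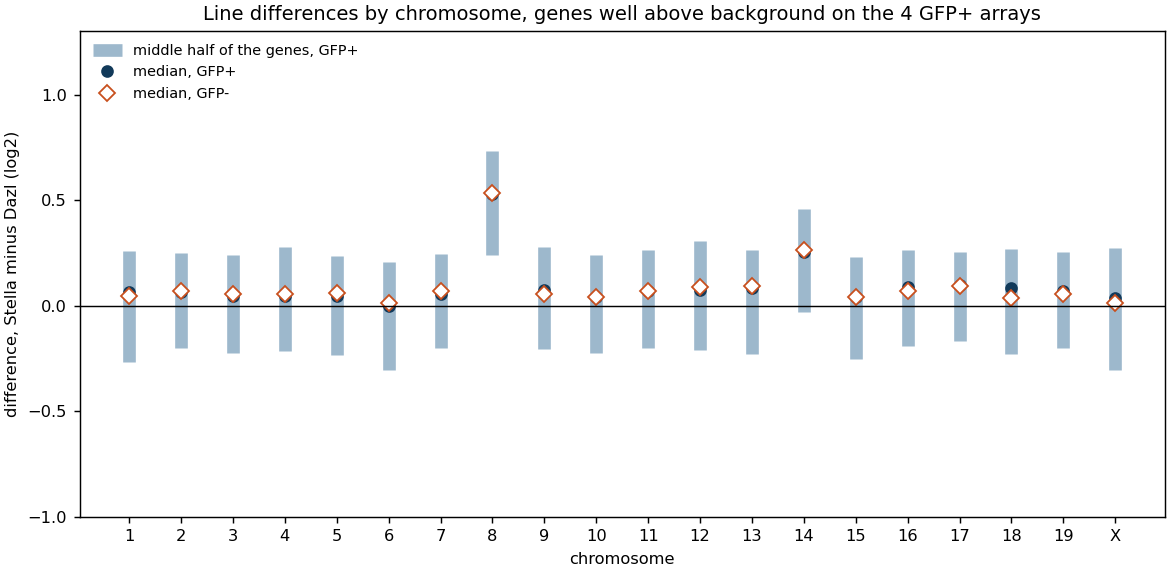
Difference between the lines (log2, Stella minus Dazl, vertical axis) by chromosome (horizontal axis) for genes well above background on the 4 GFP-positive arrays; bars span the middle 50% of genes and filled points are medians in GFP-positive cells, open diamonds medians in GFP-negative cells. Chromosome 8 (0.527 and 0.534) and chromosome 14 (0.254 and 0.262) stand above the other chromosomes in both gates.

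Set against the mean of the Dazl-GFP+ arrays, the chromosome 8 medians were 0.462 and 0.592 on the Stella-GFP+ arrays, 0.485 and 0.501 on the Stella-GFP-negative arrays and 0.346 and 0.275 at day 7, where the median of all genes was -0.147 and -0.154. In the Dazl line they were -0.059 and -0.059 in GFP-negative ES cells, -0.139 and -0.044 at day 12, and -0.240 and -0.202 at day 16. All 6 arrays of the Stella line were thus above all Dazl arrays of cultured cells for this chromosome. On the Y chromosome, 4 genes were well above background on the 4 arrays, with a median of -0.556. Eif2s3y, a translation factor gene of the Y, was at 1.48 and 1.12 against 1.86 and 2.10 (-0.68 ± 0.18, adjusted p = 0.0332), a call lost in about as many alternatives as it was kept. Ddx3y, a Y-linked helicase, gave -0.71 ± 0.42 (adjusted p = 0.294), and no probe of Xist, the RNA that coats an inactive X, was well above background on any array.

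The genes next to the reporters' own loci were compared because the Stella reporter came with a BAC. Of the 6 named genes on either side of Dppa3, 10 were tested. Gdf3 and Apobec1, a cytidine deaminase, were higher in the Stella line by 0.93 and 0.82, Mfap5 and Rimklb were lower by 1.58 and 1.10, and the other 6, Nanog among them, were not called. Of the 6 on either side of Dazl, 9 were tested, of which Tbc1d5 and Efhb were higher by 0.55 and 0.84 and Rftn1 and Kcnh8 lower by 0.78 and 1.43. Over all genes, 18.01% were called, 9.16% higher and 8.85% lower. With so few neighbours, these counts give no result about either locus. The extent of the BAC insert is not given in the sources used here, and its part in these values was not tested. The 6 neighbours tested from Apobec1 to Necap1 had positive differences, of 0.82 for Apobec1, 0.93 for Gdf3, 0.32 for Nanog, 0.09 for Slc2a3, 0.56 for Foxj2 and 0.55 for Necap1. Second probes gave 0.27 for Apobec1 and -0.48 for Rimklb.

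The same lines differed by a like number of genes in the GFP-negative gate, where 3169 genes (18.7%) were called, 1911 (11.3%) higher and 1258 (7.41%) lower in the Stella line. These arrays are separate samples, which share slides with the GFP-positive ones. Same-numbered arrays of the 2 gates deviated together, with correlations of 0.61 in the Stella line and 0.407 in the Dazl line. Both comparisons also share 1 error estimate, so the gates are not independent in the counts and correlations that follow. There were 1621 genes called in both gates in the same direction, 53% of the GFP-positive calls and 51.2% of the GFP-negative calls, and 52 called in opposite directions. Of the 3058 genes called in GFP-positive cells, 2746 had the same sign in GFP-negative cells. Across 16981 genes, which are not independent replicates, Pearson's r between the differences was 0.619 and Spearman's rho 0.602. The difference between the gates was called for 391 genes (2.30%), with a positive value in 99 (0.583%) and a negative value in 292 (1.72%). Of these, 267 were also called between GFP-positive cells, 60 as higher and 207 as lower in the Stella line. Both reporter genes, for which the sorts selected, were among these 267, as were Nanos3, Tdrd5, Pou3f1 and Vim. That count of 391 was 0 in the 8 ES arrays with the replicate number as a block, where 1626 passed an unadjusted p under 0.05 in limma, 7 in the same arrays without the block and 6 in the fit of all 18. It was 1065 without Stella-GFP+ replicate 1, 699 without Stella-GFP-negative replicate 1, 208 and 177 without Dazl-GFP+ replicate 1 and 2, and 175 and 139 without Dazl-GFP-negative replicate 1 and 2. The GFP-negative count was 1440 and 1455 without Dazl-GFP-negative replicate 1 and 2.

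**Figure D5:**
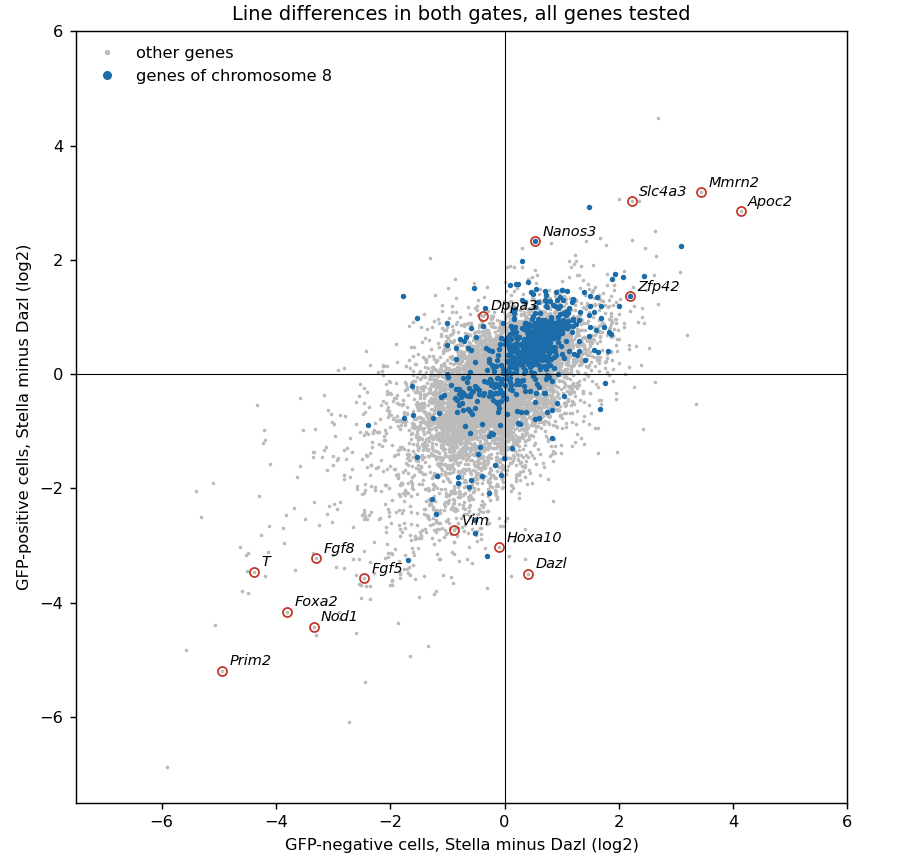
Line differences (log2, Stella minus Dazl) in GFP-negative cells (horizontal axis) and GFP-positive cells (vertical axis) for the 16981 genes tested; blue points are genes of chromosome 8 and circled genes are named. Prim2, Foxa2 and Mmrn2 lie near the diagonal, while Dazl at 0.41 and -3.50 and Hoxa10 at -0.10 and -3.03 are low in the GFP-positive gate; Hoxa10, not well above background in Stella-GFP+ cells, is plotted as measured.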

How the data were processed

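Per the file headers, the deposited spot intensity was background-subtracted by Agilent Feature Extraction, version 9.1.3.1, without scaling to other arrays. Group means of intensity that the authors deposited were used as an alternative alone.

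Here 43379 non-control spots were read, outlier-flagged spots were dropped (172 of 41174 probes lost) and replicate spots averaged. Levels are log2 values of the deposited intensity after division by the 75th percentile of that array. RefSeq gave names by accession for 22846 probes and by symbol for 9721, and 8435 kept their original name. Probes well above background on both arrays of any fitted group were retained. The probe of highest mean level represented a gene, giving 16981 genes, 14310 of them named.

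Limma 3.58.1 in R 4.3.3 (package data.table, version 1.17.8) fitted 14 arrays in 7 groups, with 7 residual and 1.72 prior degrees of freedom. Tests were two-sided with Benjamini-Hochberg adjustment over all genes and calls at an adjusted p under 0.05. Cultured cells were fitted together because 2 arrays a group leave little residual spread. For genes not well above background in the lower group, a fold is given as a lower bound: the higher group's mean against the dim group's mean, taking on each dim array the gene or the detection limit, whichever was higher. The number of arrays limits precision.

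The members, the 38 gene lists and the tests were chosen with earlier results of these data known. Genes open to naming were a panel (Sox2, Pou5f1, Nanog, Xist, Ddx3y, Kit, Ddx4 and both reporter genes), the 12 largest called rises and falls that separated the arrays, up to 4 called members per list and direction by p, cell type markers, the Dppa family, and the 6 neighbours on either side of Dppa3 and Dazl.

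Of the ES arrays, 1 slide held replicate 1 of all 4 groups. In data simulated for this comparison, 56 of 100 genes shifted by 1 and 85 of 100 shifted by 2 in log2 were called, with 8 of 16781 unshifted genes. The simulated noise was independent between arrays and had 1 spread per gene in all groups. In the real arrays, replicates differed by a median of 0.351 in Stella-GFP+ and 0.149 in Dazl-GFP+ cells. The simulation therefore gives no rate of false calls for these data. The alternatives are listed in the closing section. Work used pandas 2.3.3, numpy 2.4.6 and matplotlib 3.10.9 under Python 3.11.15.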

Additional observations from a re-analysis of the deposited data

Results flagged for a closer look

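For 32 of the genes that could be named, the difference between the lines differed between GFP-positive and GFP-negative cells in a direct test (limma, adjusted p under 0.05). Over all genes tested, 391 of 16981 (2.30%) passed. Most genes that could be named were chosen by their GFP-positive difference, which is part of this test. That choice favoured passing, so the count of 32 is a description alone. The values here are the GFP-positive difference minus the GFP-negative difference, Stella minus Dazl, in log2. The count of all genes passing this test fell from 391 to 7 in the fit of the 8 ES arrays, 6 in the fit of all 18 arrays and 1 with normexp. With the replicate number as a block in the 8 ES arrays it was 0, and same-numbered arrays correlated at 0.61 within the Stella line and 0.407 within the Dazl line.

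The value was positive for Nanos3 (1.79), Tdrd5 (1.40), Dppa3 (1.39), Smad1, which carries BMP signals (1.32), and Plcl2, a neighbour of Dazl (1.03). Smad1 changed sign between the gates, from -0.67 in GFP-negative to 0.65 in GFP-positive cells, as did Dppa3. Nanos3 and Smad1 lie on chromosome 8.

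The most negative value was that of Dazl (-3.91), whose reporter, like that of Dppa3, set a gate, so the sorts favoured both values. Among pluripotency and epiblast genes it was negative for Pou3f1 (-1.62), Sall2 (-1.65), Spp1 (-1.47), Tbx3 (-1.30), Dnmt3l (-1.21), Nr0b1 (-1.01), Fgf15 (-0.91), Zfp42 (-0.84), Dppa2 (-0.74) and Dppa5a (-0.65). Zfp42, Nr0b1, Dppa2 and Fgf15 were higher in the Stella line in both gates and by more in GFP-negative cells. Dnmt3l, Tbx3, Sall2, Spp1 and Dppa5a had negative differences in GFP-positive cells (-0.60, -0.81, -1.32, -1.45 and -0.11) and positive ones in GFP-negative cells (0.61, 0.48, 0.33, 0.02 and 0.54).

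Genes of the fibroblast and Hox lists were lower in Stella-GFP+ cells by more than in GFP-negative cells: Vim (-1.85), Col5a1 (-1.11), Hoxa10 (-2.93), Hoxd13 (-2.59) and Hoxa11 (-2.19). Hoxb9 (-2.32) had a difference of -1.92 in GFP-positive and 0.40 in GFP-negative cells. The value was also negative for Angptl7 (-3.42), Mcpt8 (-2.49), the cell cycle genes Cdkn2b (-1.77), Cdkn1a (-0.92) and Ccnd1 (-0.77), the neural adhesion gene Ncam1 (-1.42) and the retinal reductase gene Dhrs3 (-1.19). Gbx2, a homeobox gene (-1.54), Smc1b, a meiotic cohesin (-1.40), and the Y-linked Zfy2 (-1.46) were lower in the Stella line in GFP-positive and higher in GFP-negative cells. In Stella-GFP+ cells Hoxa10, Hoxd13, Hoxb9, Hoxa11, Angptl7, Mcpt8 and Dhrs3 were not well above background, so their values are as measured and give no exact size. Zfy2 was not well above background in any of the 4 GFP-positive arrays. Without a filter on dim probes, the median of this value over all genes was -0.141, against -0.017 with it.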

How the results depend on the processing

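The GFP-positive count of 3058 became 174 (52 higher, 122 lower) with normexp, 1099 (385 and 714) in the 8 ES arrays, 243 (24 and 219) in the 4 arrays compared, 615 (154 and 461) in all 18, 1080 at a log2 difference of at least 1, and 1431 to 4376 without 1 library. Without a filter on dim probes it was 2126 (849 and 1277). The GFP-negative count of 3169 became 330 with normexp, 2075 without the filter, 1163 in the 8 ES arrays, 453 in all 18, 1043 at a log2 of at least 1, and 1440 to 4325 without 1 library. The count of 391 genes that differed between the gates became 1, 210, 7 and 6 in the same order, 221 with slide as a block, 277 at a log2 of at least 1, and 139 to 1065 without 1 library. Its lowest values came without a Dazl-GFP-negative replicate. Other alternatives kept the counts within 1.5 times. With the replicate number as a replicate block in the 8 ES arrays, the counts were 1182, 1299 and 0, with 1626 genes at an unadjusted p under 0.05 for the last. Deviations of same-numbered arrays correlated at 0.61 within the Stella line, 0.407 within the Dazl line and -0.004 between the GFP-positive arrays, so the numbers do not pair the lines. Signs turned for Lifr (-0.21 with normexp, -0.0169 as a mean over probes, -0.42 in all 18 arrays, without the day 7 arrays and without Stella-GFP-negative replicate 2, -0.60 to 0.69 when 1 library was left out). They also turned for H2-D1 (0.017 as a mean over probes), Syce3 (-0.0083), Sp110 (-0.12) and Rsad2 (-0.0759) with normexp, and Rsad2 with low signals floored (-0.32). The cause of these changes was not tested. The alternatives without day 7 arrays and by chromosome were added after seeing the data. Of the named genes called, 102 were also in the authors' deposited table, and 49 kept their size within replicate spread there. Of list members called, all 132 in that table had the same sign, and over 420 members its differences were higher by a median of 0.309. Signal over background limits genes near the detection level.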
